A study of Homo sapiens with 4 samples.

Results

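The zinc finger genes of the ZNF name series that gave a clear array signal in DG75 cells are described here. DG75 is an established human Burkitt's lymphoma line. The members were the probe sets with a single gene symbol, made of ZNF and digits alone, and with a mean log2 intensity of at least 6.5 over the 4 libraries. This gave 168 of the 19088 genes with a probe set of their own, read by 171 of the 33297 probe sets. In all, 456 probe sets had such a symbol. The measured level chose the members, so their levels are described here without a test. Another 57 probe sets named a ZNF gene beside a further symbol, and 28 had a letter after the digits. They were not members. All 168 genes lay above the filter on low levels and were tested. All libraries came from the single clone AB7, which per the labels has lost native BCL6 and holds an HA-tagged BCL6 under tetracycline control. A library without doxycycline (0 h) was set beside libraries of cells kept with the drug, at 1 µg/ml, for 16, 48 and 96 h, with 1 library per time. The series title gives the search for BCL6 target genes as the purpose. No untreated library of a later time was analysed here, so hours in culture and hours with the drug cannot be told apart.

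Most ZNF genes encode proteins with arrays of C2H2 zinc fingers, small folds held by a zinc ion that read DNA bases in a row. Many also carry a KRAB domain, which recruits the corepressor TRIM28 and with it enzymes that methylate histone H3, and these proteins are best known for silencing retroelements. They arose by repeated gene duplication and lie in clusters, above all on chromosome 19. Some ZNF symbols belong to unrelated proteins, such as ubiquitin ligases and ribosome factors.

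BCL6 itself had log2 intensities of 11.10, 10.58, 10.25 and 10.50 in the libraries labelled 0, 16, 48 and 96 h. The level was thus highest in the library without doxycycline. Whether the drug raises or lowers the tagged BCL6 in this clone was not tested here, so every library is called by its label. Which BCL6 transcript the probe set reads, native or tagged, was not tested. Of 10 B cell markers, 9 had a mean of at least 6.5, the exception being MS4A1 with log2 intensities of 4.37 to 5.03. None of 8 monocyte and none of 5 stromal markers reached 6.5. Of 8 T cell markers, CD3E, CD3G and LCK did, while CD3D, CD2 and CD28 had log2 intensities of 3.89 to 4.33 in every library. The remaining T cell markers lay between, with CD8A at 4.78 to 5.02 and TRAT1 at 5.74 to 6.27. The summed linear intensity of the B cell list was 4604, 4988, 5416 and 6273 in the order of the labelled times, and that of the T cell list was 704, 758, 838 and 871. Their part in the differences below was not tested. Within a bulk sample, fewer cells with a transcript and less transcript per cell cannot be told apart.

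No member passed limma's comparison of the doxycycline libraries, 3 in all, with the untreated one at a Benjamini-Hochberg adjusted p under 0.05, and the lowest adjusted p, 0.0778, was that of ZNF217. Over all 11453 tested genes, 1.23% were called higher and 0.0786% lower, and over the 8160 with a mean of at least 6.5, 1.52% and 0.0735%. At an unadjusted limma p under 0.05, 17 members were higher and 9 lower, 15.5% of the 168 (15.3% of all tested genes and 17.6% of those of like level in either direction), beside 10.2% higher and 5.11% lower over all tested genes and 12% and 5.61% over those of like level. In 113 members, or 67.3%, every doxycycline library lay within 1.3-fold of the 0 h library, and the same held for 67.8% of all tested genes and for 65.2% of the genes of like level. The latter are the fairer background, because members were chosen by level.

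Counted by size, without a test, 14 members were at least 1.5-fold (0.585 on the log2 scale) away from the 0 h library at some time and 154 were not. At 16 h this was 1 member higher and 1 lower, with 4.34% and 0.69% of all tested genes and 5.12% and 0.65% of those of like level. At 48 h it was 5 higher and 1 lower, with 4.39% and 1.55% of all tested genes. At 96 h it was 7 higher and 6 lower, with 5.36% and 3.52% of all tested genes. Among the tested genes of like level the shares were 4.93% and 1.67% at 48 h and 6.24% and 4.34% at 96 h. ZNF587 was the member lower at 16 h and among those lower at 96 h, read by its brightest probe set. Its other member probe sets gave -0.31 and 0.04 at 16 h and -0.19 and 0.19 at 96 h. No member passed 1.5-fold in the same direction at all 3 times, where 2.31% of all tested genes were higher and 0.192% lower (2.78% and 0.221% of those of like level). At any size, 52 members (31%) lay above 0 h at all 3 times and 51 (30.4%) below it, beside 31.1% and 31.1% of all tested genes and 35.1% and 28.7% of those of like level. The 3 comparisons share the 0 h library. The median member difference was 0.05 at 16 h, 0.03 at 48 h and -0.04 at 96 h on the log2 scale, and 0.06, 0.01 and -0.04 for tested genes of like level. The number of members above the 0 h library was 102, 88 and 69 in the same order, or 60.7%, 52.4% and 41.1%, beside 60.8%, 52% and 45% of tested genes of like level. The share at 16 h was 39.9% to 49.4% with median, quantile or loess scaling, so the direction depends on the scaling. Across members, the SD of the differences was 0.24, 0.27 and 0.31, and across tested genes of like level 0.29, 0.32 and 0.39.

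**Figure D1:**
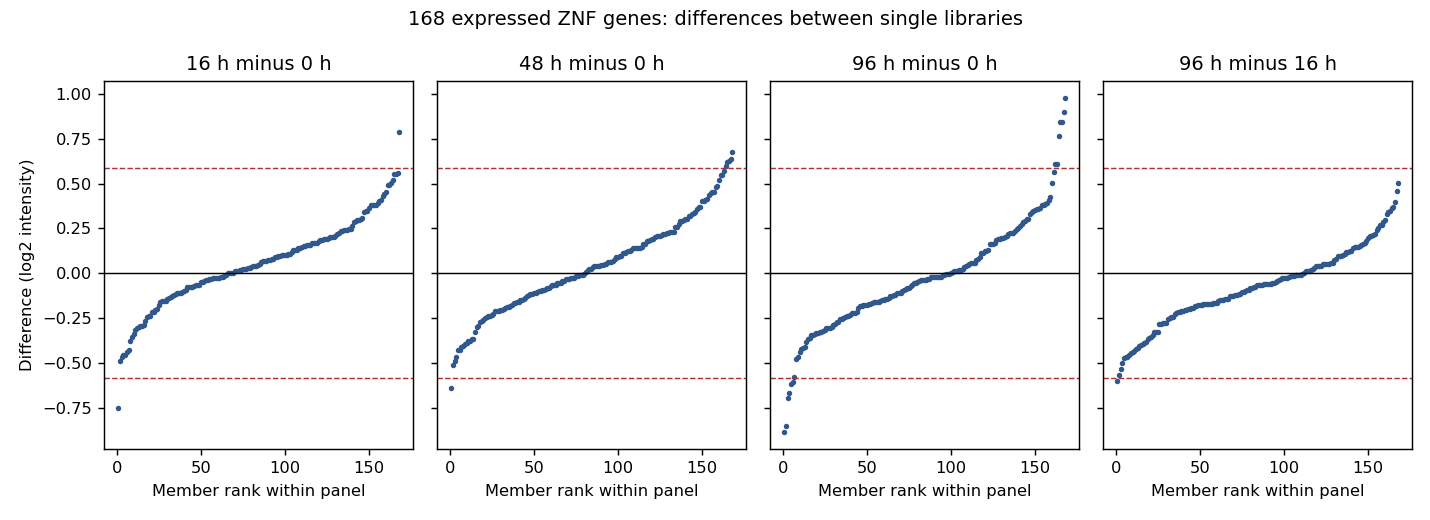
Each point is 1 of the 168 members, sorted by its own difference between 2 single libraries on the log2 scale in each panel; dashed lines mark 1.5-fold. The members lie close to 0 in every comparison, and the range widens from -0.75 to 0.79 at 16 h to -0.89 to 0.98 at 96 h.

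The member with the lowest limma p was ZNF217, whose values are given first. It encodes an oncogenic protein that works with the CoREST and CtBP corepressors and had log2 intensities of 7.16, 7.95, 7.71 and 8.0 at 0, 16, 48 and 96 h. All 3 doxycycline libraries lay above the 0 h library, with the 48 h library the lowest of them. The limma difference was 0.73 ± 0.16 (SE), and 1.79-fold was reached at 96 h. Without the 48 h library the limma difference of ZNF217 was 0.81. ZNF827, which brings the NuRD complex to telomeres, read 6.38, 6.94, 7.02 and 7.28. Its level stood in the order of the labelled times, with a limma difference of 0.70 ± 0.17 and an adjusted p of 0.0979. ZNF277, reported to bring the Polycomb protein BMI1 to the INK4A locus, read 7.76, 8.26, 8.43 and 8.60, also in the order of time (0.67 ± 0.17, limma adjusted p = 0.102).

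ZNF581 had the largest difference of all members at 96 h. Its log2 intensities were 7.41, 7.93, 8.01 and 8.39, so the library labelled 96 h was 1.97-fold above that labelled 0 h (limma 0.70 ± 0.19, adjusted p = 0.138). ZNF692, first described as a repressor that binds the AICAR response element, read 8.21, 8.58, 8.78 and 8.97 and again followed the order of time (limma 0.57 ± 0.18, adjusted p = 0.177). ZNF224 encodes a KRAB protein known as a repressor of the aldolase A gene. It read 6.32, 6.66, 6.94 and 6.93, with the later libraries close to each other (limma 0.52 ± 0.16, adjusted p = 0.179). ZNF276, with 6.81 at 0 h and 7.12, 7.36 and 7.37 later, came just short of 1.5-fold (limma 0.47 ± 0.16, adjusted p = 0.203). ZNF485 passed 1.5-fold only at 48 h, with values of 6.59, 6.85, 7.21 and 7.09, and ZNF296 only at 96 h, with 6.99, 7.09, 7.21 and 7.60. Over 3 rescalings of the libraries, the second deposited table and a correction for genomic span, all of these 96 h differences kept their sign. ZNF217, ZNF827, ZNF277, ZNF581 and ZNF692 stayed past 1.5-fold at 96 h in each of these 6 settings with the deposited scale included, while ZNF224 and ZNF296 did so in 4.

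**Figure D2:**
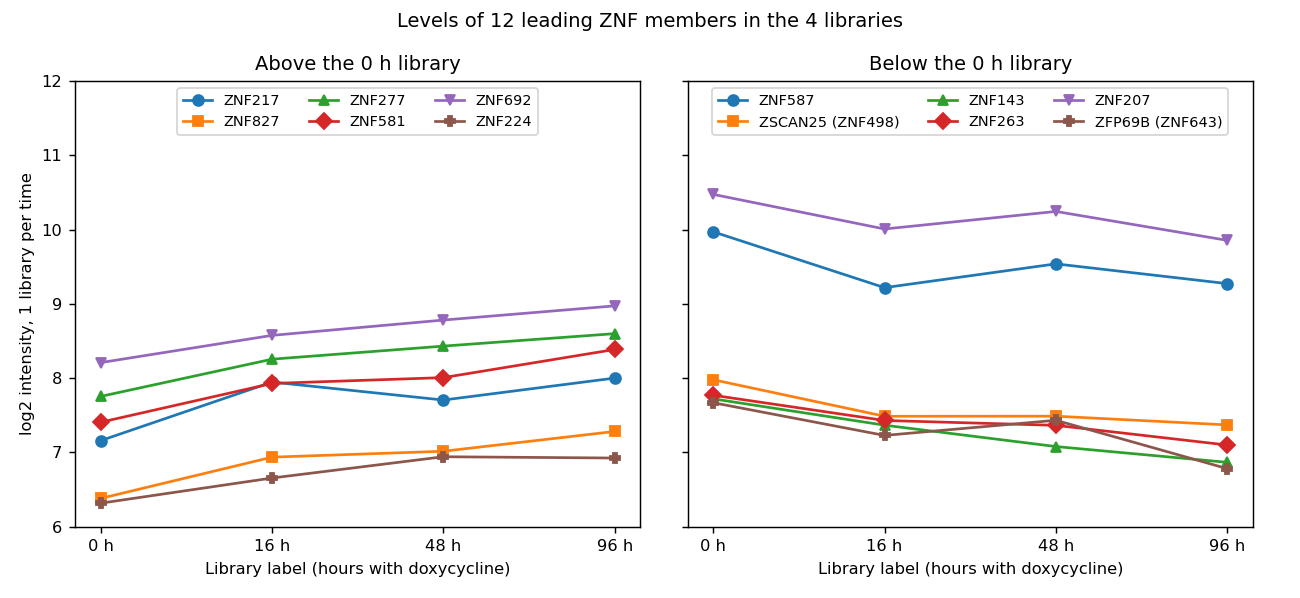
Lines join the log2 intensities of 12 members in the libraries labelled 0, 16, 48 and 96 h, with 1 library per time and no error bars. ZNF217, ZNF827, ZNF277, ZNF581, ZNF692 and ZNF224 lie above their 0 h value at each later time, and ZNF587, ZSCAN25, ZNF143, ZNF263, ZNF207 and ZFP69B lie below it. ZNF587 is drawn from its brightest probe set, and its member probe sets disagreed.

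Among the members below 0 h, ZNF143 encodes a general activator. It binds many promoters, including those of small nuclear RNA genes, and is found at the anchors of chromatin loops. Its log2 intensities were 7.72, 7.37, 7.08 and 6.87, each below the one before, and 1.81 times lower at 96 h than at 0 h. The limma difference was -0.62 ± 0.20 (SE), with an adjusted p of 0.185. ZNF76, its closest paralogue, lay the other way, with 6.79 at 0 h against 7.13, 7.24 and 7.21. The limma difference of ZNF76 was 0.41 ± 0.14, with an adjusted p of 0.213, so neither gene passed the test.

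ZNF207, also called BuGZ, is a kinetochore protein that binds BUB3. It read 10.47, 10.01, 10.24 and 9.86, with the 16 h and 96 h libraries lowest (limma -0.44 ± 0.18, adjusted p = 0.283). ZNF7 read 7.05, 6.75, 6.81 and 6.57, with all later libraries below 0 h (limma adjusted p = 0.346). ZNF263, a protein with both SCAN and KRAB domains, read 7.77, 7.43, 7.37 and 7.10, again in the order of time (limma -0.47 ± 0.17, adjusted p = 0.229). ZSCAN25, listed as ZNF498, read 7.98 at 0 h and 7.49, 7.49 and 7.37 later, so most of its difference was there at 16 h (limma -0.53 ± 0.14, adjusted p = 0.125). The deposited scale and 5 alternatives left the 96 h differences of ZNF143, ZNF263 and ZSCAN25 between -0.90 and -0.56, and that of ZNF207 between -0.64 and -0.53, past 1.5-fold in 3 of the 6.

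ZNF587, a KRAB gene with near-identical relatives, was read by 3 member probe sets that disagreed. The brightest, used in the counts, had log2 intensities of 9.97, 9.22, 9.54 and 9.27 (limma -0.63 ± 0.17, adjusted p = 0.124). The second read 7.96, 7.65, 7.90 and 7.77, which is lower at each time by less. The third read 6.91, 6.94, 6.99 and 7.10 and lay above 0 h throughout. ZNF417, the nearest relative of ZNF587, was itself a member and read 7.07, 7.04, 7.14 and 7.10, and its largest difference from 0 h was 0.06, at 48 h. The difference of ZNF587 therefore depends on the probe set. ZNF195 was the other gene with a second member probe set, at 0.38, 0.32 and 0.20 above 0 h in the brighter and -0.10, -0.01 and -0.04 in the dimmer. Probes of one such gene can also read its copies, and that was not tested.

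**Figure D3:**
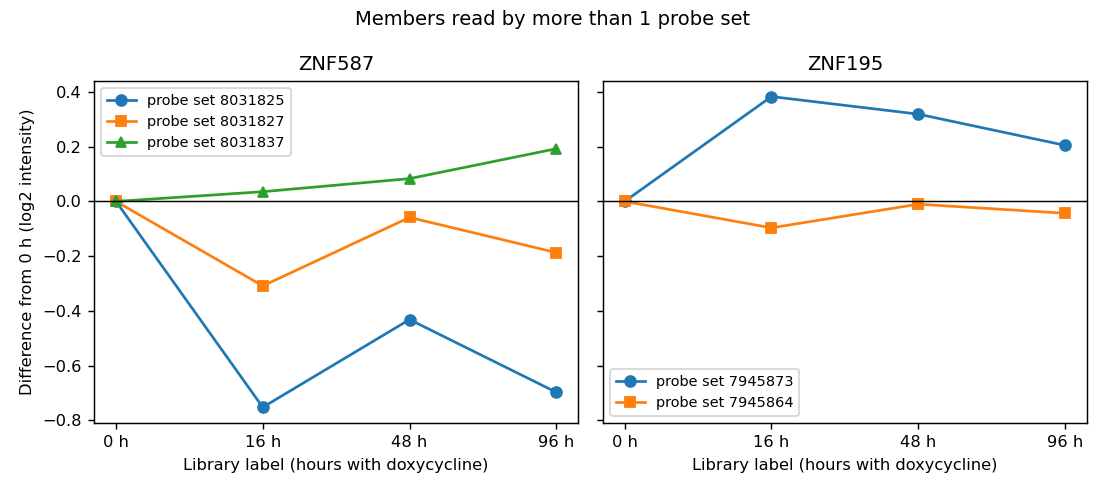
Lines show the log2 difference of each member probe set from its own value in the 0 h library, against the labelled time. The 3 ZNF587 probe sets part at 16 h, at -0.75, -0.31 and 0.04, and the 2 ZNF195 probe sets at 0.38 and -0.10.

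A list of 36 ZNF genes with described roles outside plain KRAB repression, or with known retroelement targets, held 29 members. None passed the limma threshold, and at an unadjusted p under 0.05 there were 5 higher and 5 lower (34.5% of the 29, where 15.3% of all tested genes and 17.6% of those of like level were). Its median difference was 0.02, -0.03 and -0.11 at 16, 48 and 96 h. Over all tested genes it was 0.02, -0.01 and -0.03, and over those of like level 0.06, 0.01 and -0.04. At 96 h 2 of the 29 were at least 1.5-fold higher (ZNF217 and ZNF277) and 3 lower (ZNF143, ZNF207 and ZNF263), beside 6.24% and 4.34% of tested genes of like level. The listed genes were chosen with earlier results known, so nothing particular to the list is read from these counts. The retroelement repressors of the list did not all lie on one side. ZNF91, which silences SVA elements, read 6.45 at 0 h and 6.84, 6.93 and 6.84 later (limma 0.42 ± 0.14, adjusted p = 0.202). ZNF93, which silences LINE-1 elements, read 6.57, 6.53, 6.36 and 6.55. ZNF274, which brings SETDB1 to the ends of other ZNF genes, read 6.33, 6.55, 6.62 and 6.71, in the order of time without passing the test (limma adjusted p = 0.375).

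Several members act on RNA, on ribosomes or as ubiquitin ligases. ZNF326, a subunit of the DBIRD complex that couples transcription to splicing, read 7.62, 8.17, 7.99 and 8.0 (limma 0.43 ± 0.15, adjusted p = 0.213). ZNF598, the ubiquitin ligase that marks collided ribosomes, lay lower at each time, with 7.66 at 0 h and 7.35, 7.25 and 7.28 later (limma -0.37 ± 0.14, adjusted p = 0.252). LTN1, listed as ZNF294, encodes the ligase of stalled ribosomes further downstream and read 7.48, 7.64, 7.64 and 7.41, on either side of 0 h. The ribosome assembly factors ZNF622 and ZNF593 differed from 0 h by -0.05 and -0.15 at 96 h. RNF114 and RNF115, ubiquitin ligases listed as ZNF313 and ZNF364, differed by -0.17 and -0.33. ZPR1, listed as ZNF259 and known as a partner of the SMN protein, differed by -0.33, and CHAMP1, a kinetochore attachment protein listed as ZNF828, by -0.18.

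Other members of the list act on transcription and chromatin. ZNF410, an activator that acts on the CHD4 gene almost alone, read 7.92, 7.85, 7.64 and 7.45, in descending order (limma -0.27 ± 0.18, adjusted p = 0.521). CHD4 itself read 10.43, 10.75, 10.48 and 10.59. ZNF335, a component of histone methyltransferase complexes, was lower at each time, with 7.79 at 0 h and 7.49, 7.42 and 7.38 later (limma adjusted p = 0.272). ZNF592, a partner of ZMYND8, was about level at 16 h and 0.34 lower at 96 h on the log2 scale, and ZNF644, a partner of G9a, 0.28 lower. The DNA-binding proteins ZNF148, ZNF131 and ZNF384, and ZNF330, stayed within 0.11 of 0 h at every time. The rest of the list gave 96 h differences of -0.22 for ZNF24, -0.21 for ZNF800, -0.16 for ZNF146 and -0.13 for ZNF281. ZNF292 was at 0.17, ZNF706 at 0.22 and ZNF638, a partner of the HUSH complex, at 0.24.

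The library labelled 96 h was the lowest of the 4 for 67 members and the highest for 22, while that labelled 16 h was the highest for 55. For tested genes of like level these numbers were 3235, 1516 and 2918 of 8160, and for all tested genes 3917, 2419 and 3471 of 11453. Set against 16 h, which leaves the 0 h library out, 56 of 168 members (33.3%) were higher at 96 h, beside 40.8% of all tested genes and 32.6% of those of like level, and the median difference was -0.07, beside -0.06 for all tested genes and -0.11 for those of like level. With quantile, loess or median scaling or the correction for genomic span, the members' share was 48.2% to 51.2%. In the second deposited table it was 34.5%. The scalings and the span correction centre the libraries on each other, with medians over all tested genes of -0.01 to 0.02. They therefore cannot show whether the imbalance was absent. Only ZNF271P, a pseudogene listed as ZNF271, passed 1.5-fold in this comparison, where 1.27% of all tested genes were higher and 1.88% lower (1.14% and 2.28% of those of like level). It did so on the deposited scale alone and in none of the other 5 settings. ZNF271P read 7.45, 7.94, 7.54 and 7.34, so it was high in the 16 h library alone. ZNF616 was high at both 16 and 48 h, with 6.40, 6.81, 6.72 and 6.24. ZNF136 was lowest at 16 h, with 6.91, 6.45, 6.76 and 6.78. ZNF367 was lowest at 48 h, with 7.34, 7.51, 6.83 and 7.10. The largest upward difference from 16 to 96 h was 0.50, in ZNF296. In all, 13 members stood in rising and 15 in falling order of the labelled times, where 6.8% and 9.81% of all tested genes and 7.62% and 12% of those of like level did.

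RefSeq (GRCh38.p14) placed the genes on their chromosomes, where 67 of the 168 member genes lay on chromosome 19, 19 on chromosome 7, 14 on chromosome 1 and 11 on chromosome 16. Median differences of the chromosome 19 members were 0.06, -0.01 and -0.03 at 16, 48 and 96 h, and those of the 101 others 0.05, 0.04 and -0.04. On chromosome 19, 50 of 67 members stayed within 1.3-fold of 0 h at all times, as did 374 of 500 other genes of that chromosome with a mean of at least 6.5. Elsewhere it was 63 of 101 members. The unadjusted limma p was under 0.05 for 5 members on chromosome 19 (7.46%) and for 21 elsewhere (20.8%), beside 11.8% of the 500 other chromosome 19 genes and 17.6% of all tested genes of like level. No test of this difference was made.

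**Figure D4:**
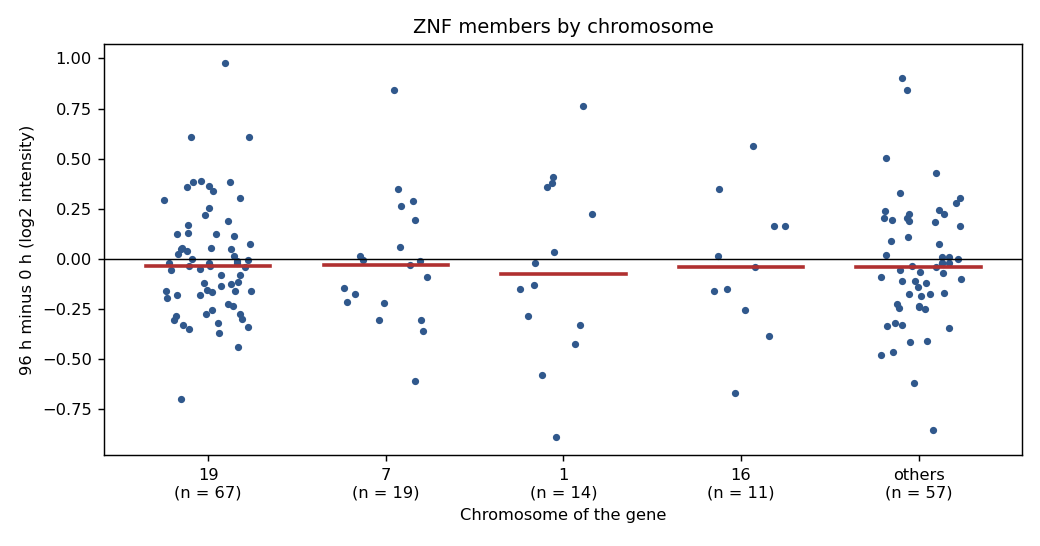
Each point is the log2 difference of 1 member between the libraries labelled 96 h and 0 h, for chromosomes 19, 7, 1 and 16 and for all others pooled, and red bars are medians. The 67 members of chromosome 19 centre on -0.03, and each of the 5 plotted groups has points on either side of 0.

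Neighbouring members had like values in some places and unlike ones in others. In the order of RefSeq genes, 54 members lay next to another member with no other gene annotated as protein-coding between them, in 15 pairs and 8 runs of 3. The pair ZFP69B and ZFP69, KRAB genes listed as ZNF643 and ZNF642, was lowest together. ZFP69B read 7.67, 7.23, 7.43 and 6.78 and ZFP69 6.92, 6.74, 6.81 and 6.34, with the 16 h library below the 48 h library in both and the 96 h library lowest. The limma adjusted p was 0.332 for ZFP69B and 0.550 for ZFP69. ZNF516 and ZNF236 were above 0 h together, by 0.49 and 0.38 at 16 h and 0.33 and 0.20 at 96 h. ZNF672 and ZNF692 were above 0 h by 0.41 and 0.76 at 96 h, and ZNF28 and ZNF468 below it by 0.34 and 0.37. In the run ZNF398, ZNF282 and ZNF212 every later library lay below 0 h, with 96 h differences of -0.36, -0.14 and -0.30. Other neighbours parted. ZNF768, a protein that binds MIR repeats, was 0.56 above 0 h at 16 h, while its neighbours ZNF747 and ZNF764 were 0.20 and 0.04 below it. ZNF581 was 0.98 above and ZNF784 0.08 below 0 h at 96 h, and ZNF766 was 0.29 above and ZNF480 0.32 below. Neighbours can share probe matches as copies of one another, and this was not tested.

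**Figure D5:**
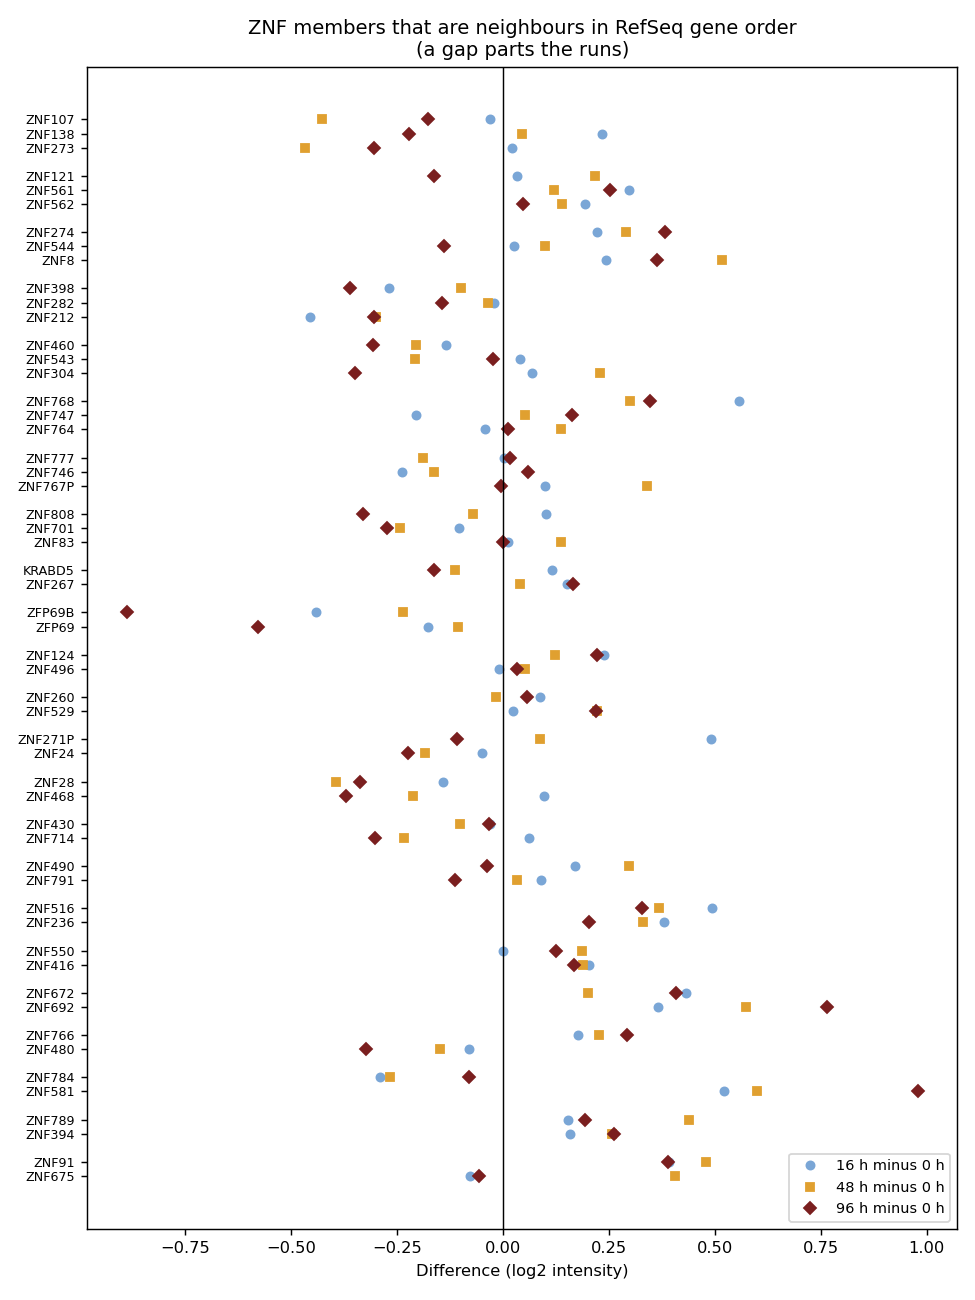
Rows are the 54 members that adjoin another member, with a gap between runs, and symbols are log2 differences of the libraries labelled 16, 48 and 96 h from that labelled 0 h. ZFP69B and ZFP69 lie at -0.89 and -0.58 at 96 h, while ZNF581 lies at 0.98 beside ZNF784 at -0.08.

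Promoter sequences from RefSeq (GRCh38.p14) were found for 147 of the 168 genes, each 300 bases long with 250 before and 50 after the start. They held a median of 63.3% G and C, against 65.3% for tested genes of like level and 58.3% for all 27305 promoters. The BCL6-type letters TTCCTNGAA were in 0 of 147 member promoters on either strand, and in 1.61% of all promoters. The looser TTCNNNGAA, which contains the first motif, was in 14 members (9.52%) and in 7.88% of all promoters. ACTACAA, a part of the sequence that ZNF143 reads, was added after the data were seen and was in 8 members (5.44%) and in 2.95% of all promoters. No motif share was computed for tested genes of like level, so these counts are not read as more or fewer than among such genes. A match is a description of letters and not a bound site. The promoters below belong to members described above, and capitals mark TTCNNNGAA, or ACTACAA, which in the printed strand reads TTGTAGT. ZNF224 (higher) and ZNF410 (lower late) hold the first, which comes in 2 identical copies in ZNF224. ZNF277 (higher) and ZNF689 (lower) hold the second. ZNF143 has neither and is shown for comparison. ZNF689 read 7.27, 6.84, 6.88 and 7.02, with all later libraries below 0 h (limma adjusted p = 0.292).
ZNF224, chr19:44094111-44094410, plus strand: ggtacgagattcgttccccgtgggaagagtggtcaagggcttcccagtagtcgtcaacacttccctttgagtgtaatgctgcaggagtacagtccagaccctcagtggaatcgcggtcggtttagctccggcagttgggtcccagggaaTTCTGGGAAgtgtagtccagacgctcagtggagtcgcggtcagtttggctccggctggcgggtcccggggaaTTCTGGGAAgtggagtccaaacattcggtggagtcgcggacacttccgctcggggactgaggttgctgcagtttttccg
ZNF410, chr14:73886609-73886908, plus strand: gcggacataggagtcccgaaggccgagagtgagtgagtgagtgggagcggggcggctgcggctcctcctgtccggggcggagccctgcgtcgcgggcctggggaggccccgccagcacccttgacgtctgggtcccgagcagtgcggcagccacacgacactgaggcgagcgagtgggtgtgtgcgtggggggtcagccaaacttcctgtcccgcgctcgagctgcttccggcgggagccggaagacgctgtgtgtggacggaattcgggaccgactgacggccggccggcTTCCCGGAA
ZNF277, chr7:112206445-112206744, plus strand: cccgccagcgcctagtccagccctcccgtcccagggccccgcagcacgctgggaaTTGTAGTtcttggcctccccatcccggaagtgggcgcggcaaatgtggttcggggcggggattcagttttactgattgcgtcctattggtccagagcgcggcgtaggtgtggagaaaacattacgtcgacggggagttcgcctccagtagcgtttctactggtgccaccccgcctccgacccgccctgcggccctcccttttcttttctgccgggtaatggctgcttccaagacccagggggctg
ZNF689, chr16:30610384-30610683, minus strand: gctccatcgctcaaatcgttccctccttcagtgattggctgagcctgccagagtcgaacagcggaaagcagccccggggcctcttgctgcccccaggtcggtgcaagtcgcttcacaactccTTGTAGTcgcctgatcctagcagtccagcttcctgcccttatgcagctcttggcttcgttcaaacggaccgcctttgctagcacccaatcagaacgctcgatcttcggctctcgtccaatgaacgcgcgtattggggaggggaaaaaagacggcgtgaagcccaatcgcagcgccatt
ZNF143, chr11:9460762-9461061, plus strand: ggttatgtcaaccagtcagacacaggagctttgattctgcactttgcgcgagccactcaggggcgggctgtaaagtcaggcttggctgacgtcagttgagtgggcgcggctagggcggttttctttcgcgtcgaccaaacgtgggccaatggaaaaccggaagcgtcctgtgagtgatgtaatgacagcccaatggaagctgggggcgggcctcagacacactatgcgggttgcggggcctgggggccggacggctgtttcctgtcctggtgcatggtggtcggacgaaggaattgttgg

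Genes with matches thus lay on either side of 0 h. ZNF8, which also holds ACTACAA, read 7.34, 7.58, 7.85 and 7.70. ZNF180 and ZNF227 hold both patterns and differed from 0 h by 0.01 and -0.12 at 96 h.

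The partners of KRAB proteins were taken from a list of 27 corepressor and silencing genes, of which 25 were tested. None passed the limma threshold, and at an unadjusted p under 0.05 there were 2 higher and 1 lower (12%, beside 15.3% of all tested genes and 17.6% of those of like level). The list's medians were 0.19, 0.07 and 0.07 at 16, 48 and 96 h. Those of all tested genes were 0.02, -0.01 and -0.03, and those of genes of like level 0.06, 0.01 and -0.04. TRIM28, the shared KRAB corepressor, read 11.06 at 0 h and 10.87 at 48 h, its highest and lowest values, and SETDB1, its histone methyltransferase, 7.85, 7.94, 7.95 and 7.85. TASOR, a core protein of the HUSH silencing complex, read 7.83, 8.80, 8.32 and 8.49 (limma 0.71 ± 0.19, adjusted p = 0.135). SUV39H1, another methyltransferase of the same mark, read 7.68, 7.13, 6.69 and 6.90 (limma -0.77 ± 0.18, adjusted p = 0.0936), so these partners were on opposite sides of 0 h.

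The dimmer ZNF genes and related families were set beside the members by counts. Of 121 tested ZNF genes under the level of 6.5, limma called 2 higher with Benjamini-Hochberg adjustment, ZNF594 (0.87 ± 0.14 SE, adjusted p = 0.0315) and ZBTB18, listed as ZNF238 (0.90 ± 0.14, adjusted p = 0.0298). ZNF594 and ZBTB18 were chosen after their values were seen. Over all tested genes, 1.23% were called higher. At an unadjusted limma p under 0.05, 13 of the 121 were higher and 1 lower, or 11.6%, beside 15.3% of all tested genes. ZNF594 read 4.86 at 0 h and 5.73, 5.69 and 5.76 later, and ZBTB18, a repressor of the BTB zinc finger family to which BCL6 also belongs, read 5.55 and then 6.46, 6.52 and 6.39. Members were left out of the families counted next, among them ZSCAN25, ZKSCAN8, ZFP69, ZFP69B and ZFP82. Limma called 2 of 36 ZBTB genes and 1 of 12 KLF genes, all higher, where 1.23% of all tested genes were. It called 0 of 10 ZFP genes and 0 of 17 ZSCAN and ZKSCAN genes. ZBTB18 was counted both among the dimmer ZNF genes and among the ZBTB genes, so these calls overlap. At an unadjusted p under 0.05 there were 7 higher and 2 lower ZBTB genes, 2 higher KLF genes, 2 higher ZFP genes and 1 lower gene of the ZSCAN and ZKSCAN families, shares of 25%, 16.7%, 20% and 5.88% beside 15.3% of all tested genes. Just inside the level minimum stood ZNF304, ZNF93 and ZNF138, with means of 6.5, 6.5 and 6.53, and just outside it ZNF831, ZNF140 and ZNF513, with 6.48, 6.47 and 6.46.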

How the data were processed

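Total RNA was amplified, turned into labelled sense cDNA and hybridised to 1-colour arrays, per the labels' protocols. The submission holds 2 tables of log2 intensity deposited by the authors, with ranges of 2.35 to 14.21 and 4.46 to 14.11, from which the scale was inferred. How they were normalised, and with what software and build, is not given in the sources used. Library medians of the first table, used for every main value, were 5.24 to 5.31.

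Symbols were updated through RefSeq (GRCh38.p14). Among member probe sets 159 matched through an accession, 8 through the symbol and 4 through an older one, and 16 changed name. The brightest probe set per gene was taken from 19088 genes, and genes at or above the 40th percentile of mean level (5.18) were tested, which left 11453. Limma 3.58.1 (lmFit, eBayes) in R 4.3.3 set the 3 doxycycline libraries against the 0 h library, two-sided, with Benjamini-Hochberg adjustment over all tested genes, a threshold of 0.05 and 2 residual degrees of freedom. The code of the fit was run on simulated data with independent noise alone. Such data cannot show whether the p-values hold for these libraries. The spread is that between the doxycycline libraries and holds change over time. Nothing says the libraries were separate cultures, so p-values reflect the spread among these libraries alone, which may be technical. Arrays give no read depth, and their number limits the precision. Levels of different probe sets do not rank genes.

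The members and lists were chosen with earlier results of these data known. The rule for named genes took the members with the largest differences at each time, the lowest limma p, the highest means, neighbours and a fixed list, 79 in all, of which most are printed. Copies, other neighbours and promoter matches (ZNF417, ZNF784 and the like) were named after their values were seen. Sorting members by KRAB or SCAN domains was planned but not made, since no protein sequences were used here. Alternatives were quantile, loess and median scaling, the second table, a lowess correction for genomic span, other thresholds, no filter, the mean of probe sets, and leaving out a library.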

Additional observations from a re-analysis of the deposited data

How the results depend on the processing

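Of the alternative values computed, 100 stayed close to those reported and 46 moved, by a factor of over 1.5 for a count, over 0.1 for a median, or outside the exact 95% binomial interval for a share. That interval treats members as independent, though they share the libraries, so it is a yardstick and not a test. Some outcomes were fixed by the setting, since a count cannot rise at 2-fold or fall at 1.3-fold. The tally is therefore not a measure of how robust the results are. With 1 library per time the counts are small, so 1 gene near the threshold moves them, and the cause was not tested. No member was called by limma under quantile, loess or median scaling, the second table, the span correction, no filter or the mean of probe sets. With 1 doxycycline library left out, limma called more of all tested genes in both directions than with all 4 libraries. Without the 48 h library these included ZNF217. Calls of members in those fits are therefore not read as a result. Over the 2 times then left, 0 to 4 members were past 1.5-fold higher at each and 0 to 1 lower. At 1.3-fold, 18, 19 and 15 members were higher at 16, 48 and 96 h, 8, 11 and 14 lower, and 5 higher and 2 lower at all times. At 2-fold all 6 counts by time were 0. With a level minimum of 7.5 (62 members), 2 were higher and 0 lower at 48 h, and 4 higher and 3 lower at 96 h. At 48 h, 3 were higher with quantile scaling, 1 with median centring and 1 in the second table, where 0 were lower. At 16 h, 2 were lower with quantile scaling, median centring and the span correction, and 2 higher with the last. For 96 h against 16 h, 0 were lower under all 5. No share over all tested genes stands beside these counts by size. They are therefore not read as more or fewer than among other genes. The share of members above 0 h at 16 h was 60.7% as deposited, 44% with quantile, 49.4% with loess and 39.9% with median scaling, which also put the median difference at -0.06. At 48 h it was 42.9% with median centring, and at 96 h 54.2% after the span correction. The share higher at 96 h than at 16 h was 33.3% as deposited and 48.2%, 49.4%, 51.2% and 50% with quantile, loess, median and span, so the balance of small differences is not settled. Differences correlated with genomic span across the 168 members, which share the libraries, at 0.17, 0.07 and -0.01 at 16, 48 and 96 h and -0.19 for 96 h against 16 h (Spearman, a description), and across genes of like level at 0.27, 0.20, 0.13 and -0.09. No paired analysis was possible because each group holds 1 library.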
